A study of Mus musculus with 8 samples.

Results

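Tnfrsf12a encodes Fn14, the cell surface receptor for the cytokine TWEAK, and it is described here with 8 other genes of its pathway, listed by name: Tnfsf12, Traf2, Traf3, Birc2, Map3k14, Nfkb2, Relb and Tnfaip2. These 9 genes were found by symbol among the 49671 genes of the deposited table, and all 9 were among the 16432 genes tested, which reached a value of 1 in 2 or more libraries. Tnfrsf12a was chosen by its normalized values, which were higher after pressure overload under both diets, so its difference between the operated groups is a description and was not tested.

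Left ventricles were taken from C57BL/6N mice, all male, that were 8 weeks old at the start, 4 weeks after surgery, and their polyA RNA was sequenced. The surgery was transverse aortic constriction (TAC), in which a tie around the aortic arch raises the load on the left ventricle, or a sham operation. The diets were a low fat one, SFA, and SFA-EAA, where free essential amino acids took the place of 93.5% of the casein. The 4 groups, with 2 libraries each, were TAC SFA-EAA, TAC SFA, sham SFA-EAA and sham SFA, and no genetic change is given for any of them. Whether a group's libraries are separate animals is not stated, and p-values therefore reflect only how these samples vary, which may be technical.

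TWEAK is made as a membrane protein that can be shed, and binding to Fn14 clusters the receptor so that it draws TRAF proteins and the ubiquitin ligase cIAP1 to its short cytoplasmic tail. In unstimulated cells TRAF2, TRAF3 and cIAP1 keep the kinase NIK at a low level by marking it for degradation, and when the receptor takes these proteins up, NIK accumulates and leads to processing of the NF-kB precursor p100 to p52, which enters the nucleus with RelB. This is the non-canonical NF-kB pathway. Fn14 is known as a receptor that is scarce in healthy adult tissue and induced by injury or mechanical load, in cardiac muscle cells among others.

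The starts of the genes were looked at for the sequence that NF-kB dimers bind, since Nfkb2 and Relb encode parts of such dimers. RefSeq windows of 250 bases before each start site (GRCm38.p6) were at hand for 7 of the 9 genes, with 10 windows in all because Birc2 and Nfkb2 have several starts. A kappaB consensus was searched on both strands and was found in 3 of the 7 genes, in 1 window each of Traf3 and Tnfaip2 and in 3 windows of Nfkb2. Of 32851 mouse promoters 7.25% held it, and since the windows of a gene are not independent, the shares were not compared. The receptor gene had none, and the AP-1 motif TGACTCA or its reverse complement TGAGTCA was in no window of the 7 genes and in 4.46% of all promoters. Such a match is a string of letters and not a measured binding site. The windows of the receptor gene and of the 3 genes with a match, the most upstream one for Nfkb2, read 5′ to 3′ along the strand of the gene, with kappaB matches in capitals:
Tnfrsf12a, chr17:23677450-23677699, minus strand: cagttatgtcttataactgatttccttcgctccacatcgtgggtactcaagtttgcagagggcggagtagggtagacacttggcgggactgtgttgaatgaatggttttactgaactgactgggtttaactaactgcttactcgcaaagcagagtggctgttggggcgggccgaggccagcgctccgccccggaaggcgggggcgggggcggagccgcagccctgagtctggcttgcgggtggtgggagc
Traf3, chr12:111166120-111166369, plus strand: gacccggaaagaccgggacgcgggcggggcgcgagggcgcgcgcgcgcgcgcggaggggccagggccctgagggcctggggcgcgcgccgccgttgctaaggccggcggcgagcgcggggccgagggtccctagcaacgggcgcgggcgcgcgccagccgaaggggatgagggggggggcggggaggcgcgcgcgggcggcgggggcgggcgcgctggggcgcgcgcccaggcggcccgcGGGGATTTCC
Nfkb2, chr19:46304487-46304736, plus strand: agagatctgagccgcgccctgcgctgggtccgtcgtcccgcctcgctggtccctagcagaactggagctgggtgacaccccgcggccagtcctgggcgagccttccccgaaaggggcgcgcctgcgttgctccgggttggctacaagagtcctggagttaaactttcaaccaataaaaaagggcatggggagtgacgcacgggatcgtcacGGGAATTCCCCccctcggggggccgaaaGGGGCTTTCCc
Tnfaip2, chr12:111442411-111442660, plus strand: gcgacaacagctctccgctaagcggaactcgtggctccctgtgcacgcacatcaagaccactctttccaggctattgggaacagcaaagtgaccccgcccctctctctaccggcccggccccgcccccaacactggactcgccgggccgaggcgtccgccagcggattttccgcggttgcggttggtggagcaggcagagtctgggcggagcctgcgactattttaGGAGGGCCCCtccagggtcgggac

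The match in Traf3 ends at the start site, that in Tnfaip2 begins 24 bases before it, and the longer run of capitals in Nfkb2 joins 2 matches that overlap. The RefSeq start site of Tnfaip2 lies downstream of the deposited start of the gene at 111442469, so its match falls inside the gene as deposited. The matches in the other windows of Nfkb2 also lie inside the deposited gene, which begins at 46304737.

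The deposited values are signals per gene that the authors normalized with edgeR, per the submitters' processing notes, and are called normalized values below. They summed to between 5136441 and 6298743 per library. Several libraries stood apart in ways that touch these genes. The deviation of genes from their mean over the 8 libraries fell with GC content in TAC SFA-EAA replicate 2 and in both sham SFA-EAA libraries (Spearman rho -0.70, -0.59 and -0.40 over 11387 genes) and rose with it in the other 5 (0.32 to 0.48), so base composition goes largely with diet. In rank order, 4 of the 8 libraries were closest to a library of another group: TAC SFA-EAA replicate 1 and sham SFA replicate 2 to each other (rho 0.981), TAC SFA-EAA replicate 2 to sham SFA-EAA replicate 1 (0.979) and TAC SFA replicate 1 to TAC SFA-EAA replicate 1 (0.978). Mitochondrial genes held 33.6% to 39.5% of the values in SFA-EAA libraries and 22.1% to 30.3% in SFA libraries. Atrial markers such as Myl7 were high in TAC SFA replicate 2 (321.9) and sham SFA replicate 1 (621.3), with 1.28 to 43 in the remaining 6, while Bmp10 was at 0 in all 8. The 10 cardiomyocyte markers, Myl2 and Myh6 among them, were present in every library. Their sums lay between 313800 and 415300 in TAC SFA-EAA and 336200 and 357100 in sham SFA-EAA. Under SFA the sums lay between 349900 and 381500 in TAC hearts and 414900 and 419300 in sham hearts. In bulk tissue, fewer cells of a type and less RNA per cell cannot be told apart.

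The receptor gene, Tnfrsf12a (ENSMUSG00000023905, GRCm38 chr17:23675447-23677449, minus strand, 963 exonic bases), had normalized values of 499.8 and 469 in TAC SFA-EAA, 745.6 and 815.9 in TAC SFA, 206.8 and 161.2 in sham SFA-EAA, and 240.5 and 241 in sham SFA. The 4 groups did not overlap at any point, and their order from high to low was TAC SFA, TAC SFA-EAA, sham SFA and sham SFA-EAA. The group means were 484.4 ± 21.7 in TAC SFA-EAA and 184 ± 32.2 in sham SFA-EAA, and 780.8 ± 49.7 in TAC SFA and 240.7 ± 0.363 in sham SFA (SD, n = 2 each). Under SFA the level was 3.23-fold higher after TAC than after sham, a log2 difference of 1.69 with a standard error of 0.143, and under SFA-EAA it was 2.64-fold higher, a log2 difference of 1.40 with the same standard error. All fold changes here are on the log2(value + 1) scale. No setting moved these log2 differences outside 1.63 to 1.76 under SFA and 1.22 to 1.58 under SFA-EAA, with GC correction and each library left out in turn among the settings.

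**Figure D1:**
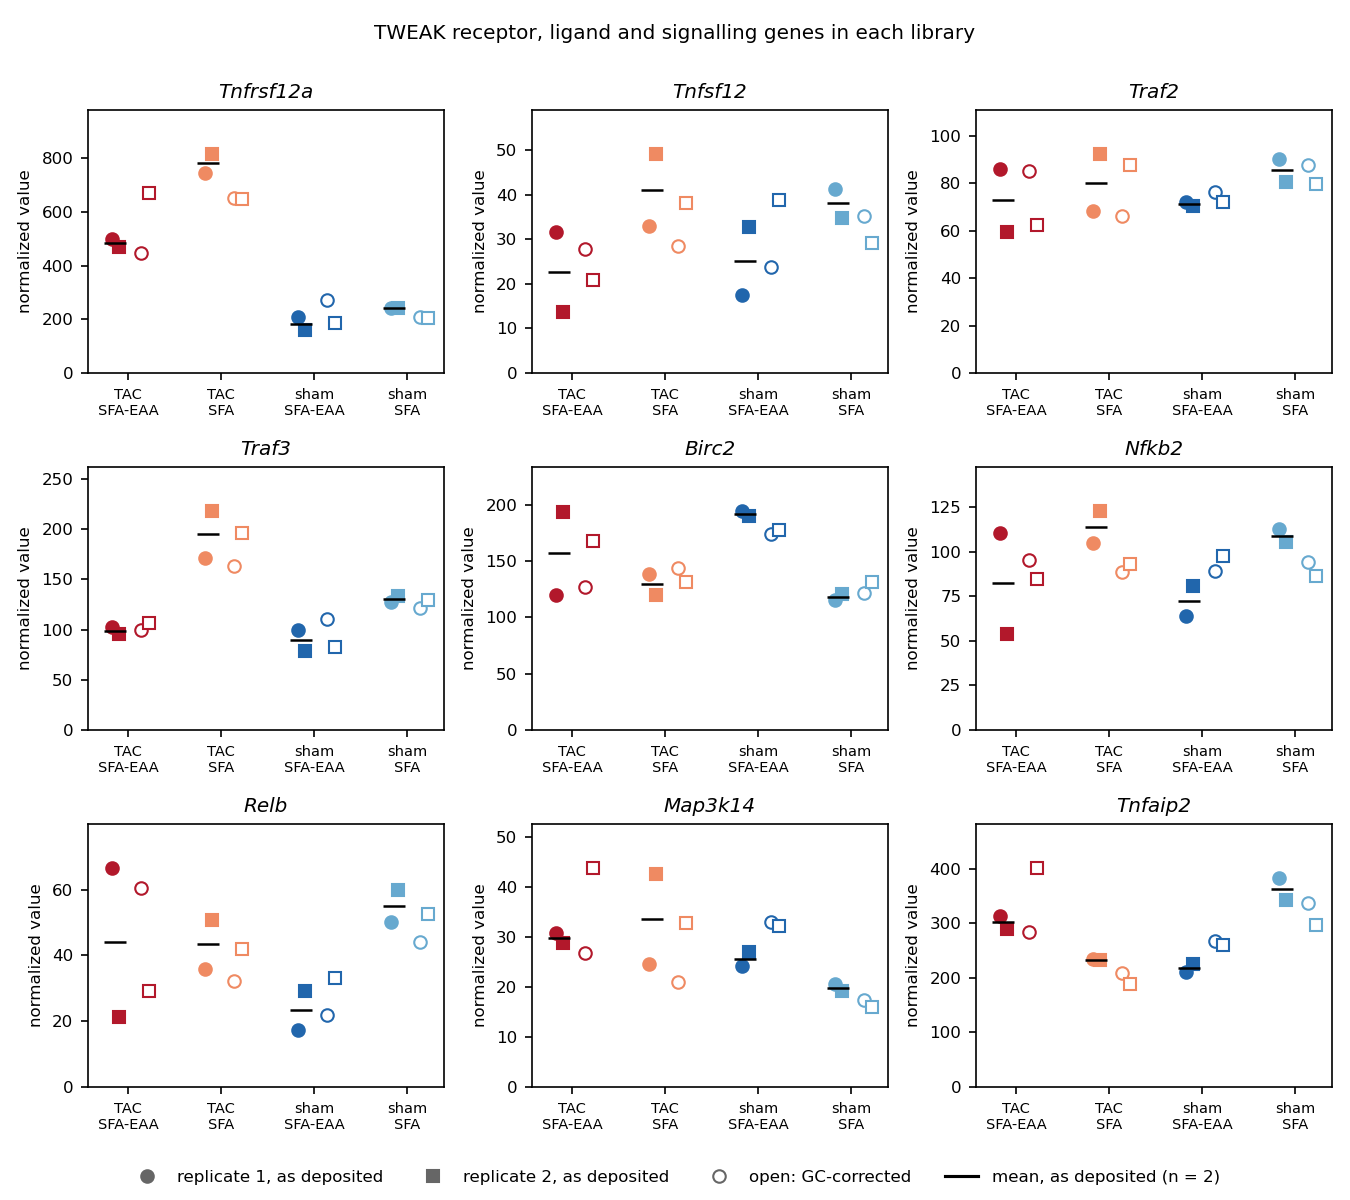
Normalized value (y axis, linear from 0) of each of the 9 genes in each library, by group (x axis, TAC SFA-EAA, TAC SFA, sham SFA-EAA and sham SFA); filled points are libraries as deposited, open points the same libraries with GC correction, and bars the means of the 2 deposited values. As deposited, Tnfrsf12a separates all 4 groups, with TAC SFA at 745.6 and 815.9. With GC correction its TAC libraries stay above its sham libraries, but the diet groups overlap. For Tnfsf12 or Traf2 the TAC and sham libraries overlap under both diets.

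Diet was compared for Tnfrsf12a within each operation, which the choice of the gene did not use, though it rested on the same 8 libraries. After TAC, the SFA-EAA libraries stood at 0.621 of the SFA level (log2 difference -0.69, 95% interval -1.01 to -0.36), with an unadjusted p of 0.000942 and a limma adjusted p of 0.118. In sham hearts the SFA-EAA libraries stood at 0.759 of the SFA level (log2 difference -0.40, interval -0.72 to -0.07, adjusted p = 0.281). Neither passed the threshold of 0.05 on the adjusted p. Once each library's trend with GC content was removed, the corrected values were 445.5 and 671.9 in TAC SFA-EAA and 650.5 and 648.4 in TAC SFA, and 270.7 and 187.6 in sham SFA-EAA and 208.6 and 206.2 in sham SFA. On that scale the diet groups overlapped after both operations, with log2 differences of -0.25 after TAC (adjusted p = 0.604) and 0.12 in sham (adjusted p = 0.868), whereas every TAC library stayed above every sham library. The change in the TAC difference between the diets was -0.29 on the log2 scale, with an interval from -0.75 to 0.17 (adjusted p = 0.913).

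Per kilobase of exon, Tnfrsf12a was the most abundant of 28 TNF receptor family genes in each of the 8 libraries. Its mean over all libraries was a normalized value of 439 per kb, above that of 97.2% of the genes tested. This mean includes the TAC libraries, at 487 to 847 per kb, and the sham libraries were at 167 to 250 per kb. The next receptors were Tnfrsf1a, the main TNF receptor, at 81 per kb, Ltbr, the lymphotoxin beta receptor that also drives the non-canonical pathway, at 60 per kb, and the death receptor Fas at 43.9 per kb. Tnfrsf13c, the BAFF receptor of B cells, was listed at 0.

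**Figure D2:**
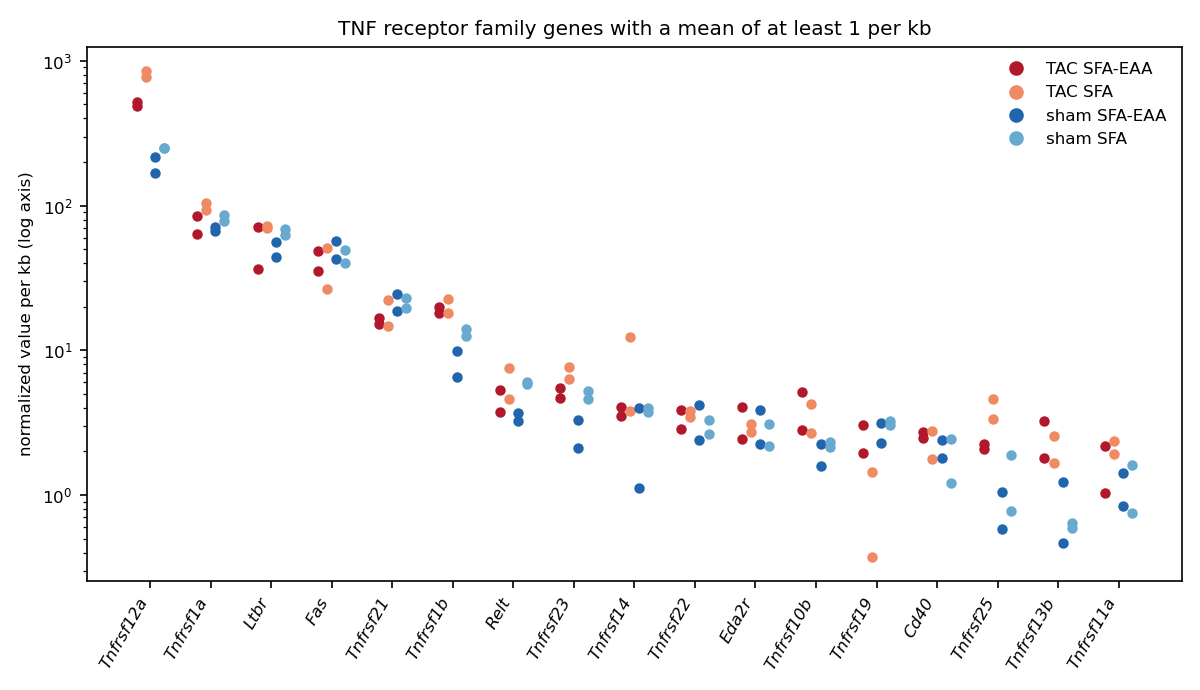
Normalized value per kb of exon (log axis) of the most abundant TNF receptor family genes in each library, coloured by group. Tnfrsf12a lies above every other receptor in all 8 libraries, with Tnfrsf1a next by the mean over libraries (81 per kb against 439 per kb).

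The ligand gene, Tnfsf12 (ENSMUSG00000097328, chr11:69686250-69695849, minus strand), encodes TWEAK, and its mean of 21 per kb was above that of 63.3% of the genes tested. It had 31.7 and 13.8 in TAC SFA-EAA, 33.1 and 49.2 in TAC SFA, 17.5 and 32.7 in sham SFA-EAA, and 41.4 and 34.8 in sham SFA. The TAC and sham libraries overlapped under both diets, and as deposited all 4 SFA libraries were above all 4 SFA-EAA libraries. The log2 difference between TAC and sham was 0.09 under SFA (interval -0.91 to 1.08, adjusted p = 0.975) and -0.19 under SFA-EAA (interval -1.18 to 0.81, adjusted p = 0.951). Any difference within those intervals remained compatible with these libraries. Between diets it stood at 0.531 after TAC and 0.642 in sham hearts, SFA-EAA over SFA, with adjusted p-values of 0.364 and 0.515. With GC correction the diets overlapped in sham hearts, with 23.8 and 38.8 in SFA-EAA and 35.3 and 29.1 in SFA. The corrected log2 differences between diets were -0.43 after TAC (adjusted p = 0.577) and -0.07 in sham (adjusted p = 0.959). Per kb, the receptor gene exceeded the ligand gene by 7.75-fold to 53.6-fold across the libraries. The gene overlaps Tnfsfm13 on the same strand (1.16 to 4.6) and the antisense Tnfsf13os (0.05 to 3.44), and whether the counting used strand is not given, so part of its reads may belong to these neighbours.

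Traf2, Traf3 and Birc2 encode the proteins that hold NIK down: the adaptors TRAF2 and TRAF3 and the ubiquitin ligase cIAP1. Traf3 (ENSMUSG00000021277, chr12:111166370-111267153, plus strand) was the one of the 3 with the largest diet difference after TAC. It had 102.6 and 95.3 in TAC SFA-EAA, 171.6 and 218.1 in TAC SFA, 99.6 and 78.9 in sham SFA-EAA, and 127.3 and 133 in sham SFA. Every SFA-EAA library was below every SFA library, and within SFA both TAC libraries were above both sham libraries. After TAC the SFA-EAA level was 0.514 of the SFA level (log2 difference -0.96, interval -1.38 to -0.55, adjusted p = 0.0907), and with GC correction the log2 difference was -0.79 and passed the threshold (adjusted p = 0.0374). When TAC SFA-EAA replicate 1 was left out, the diet difference after TAC also passed for Traf3 (adjusted p = 0.0392), Tnfrsf12a (0.0448) and Nfkb2 (0.0332). In that setting 1395 genes, or 8.49% of all genes, were called, the TAC SFA-EAA library that remained being the one with the falling GC trend, and 0 genes were called when that library was left out in its place. In sham hearts Traf3 was 0.684 of the SFA level (adjusted p = 0.272). TAC hearts on SFA stood 1.48-fold above sham (log2 difference 0.57 ± 0.183 SE, adjusted p = 0.204), and TAC hearts on SFA-EAA 1.11-fold above sham (adjusted p = 0.872).

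Traf2 (ENSMUSG00000026942, chr2:25517982-25546940, minus strand) had 86.2 and 59.6 in TAC SFA-EAA, 68.2 and 92.5 in TAC SFA, 72.2 and 70.4 in sham SFA-EAA, and 90.5 and 80.7 in sham SFA. Only the sham groups were apart, and no adjusted p for Traf2 was below 0.628 in the 4 comparisons between groups. Birc2 (ENSMUSG00000057367, chr9:7818227-7837064, minus strand) had 120.1 and 193.6 in TAC SFA-EAA, 138.6 and 120.3 in TAC SFA, 194.6 and 189.8 in sham SFA-EAA, and 115.2 and 121.1 in sham SFA. Its 3 high libraries were the 3 in which values fell with GC content, and Birc2, at 43.1% GC, had the lowest GC content of the 9 genes (the others lie between 51.1% and 59.4%). In sham hearts it stood 1.62-fold higher under SFA-EAA (log2 difference 0.70, interval 0.21 to 1.19, adjusted p = 0.267), and with GC correction the log2 difference was 0.47 (adjusted p = 0.307). Its neighbour and close relative Birc3, which encodes cIAP2, had 30.8 to 48.2, and reads shared between the pair could have gone to either.

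Map3k14 (ENSMUSG00000020941, chr11:103219762-103267472, minus strand) encodes the kinase NIK and was the scarcest of the genes per kb, at a mean of 4.15. It had 30.8 and 28.8 in TAC SFA-EAA, 24.5 and 42.6 in TAC SFA, 24.2 and 26.9 in sham SFA-EAA, and 20.6 and 19.2 in sham SFA. As deposited, the TAC libraries were above the sham libraries of the same diet in both cases. The ratio was 1.6 under SFA (log2 difference 0.68, interval -0.04 to 1.40, adjusted p = 0.408) and 1.16 under SFA-EAA (log2 difference 0.22, interval -0.50 to 0.93, adjusted p = 0.893), and neither passed the threshold. With GC correction the libraries overlapped under SFA-EAA, with 26.8 and 43.8 in TAC and 33 and 32.1 in sham hearts. The corrected log2 differences were 0.07 under SFA-EAA (adjusted p = 0.967) and 0.63 under SFA (adjusted p = 0.361).

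The transcription factor genes come last in the chain. Nfkb2 (ENSMUSG00000025225, chr19:46304737-46312090, plus strand), which encodes p100, had 110.7 and 53.8 in TAC SFA-EAA, 105.2 and 123 in TAC SFA, 64 and 80.6 in sham SFA-EAA, and 112.8 and 105.5 in sham SFA. Relb (ENSMUSG00000002983, chr7:19606217-19629438, minus strand), whose product pairs with p52, had 66.6 and 21.4 in TAC SFA-EAA, 35.9 and 50.9 in TAC SFA, 17.4 and 29.2 in sham SFA-EAA, and 50 and 59.9 in sham SFA. For both genes TAC and sham overlapped under both diets, and the same 3 libraries with a falling GC trend were the lowest 3 of the 8. Between TAC and sham, the log2 difference of Nfkb2 was 0.06 under SFA (adjusted p = 0.975) and 0.10 under SFA-EAA (adjusted p = 0.962). That of Relb was -0.35 under SFA (adjusted p = 0.84) and 0.73 under SFA-EAA (adjusted p = 0.745). In sham hearts SFA-EAA stood at 0.661 of the SFA level for Nfkb2 (adjusted p = 0.382) and 0.423 for Relb (adjusted p = 0.307). With GC correction those log2 differences, -0.60 and -1.24 as deposited, were 0.05 for Nfkb2 and -0.81 for Relb (adjusted p = 0.431 for Relb).

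Tnfaip2 (ENSMUSG00000021281, chr12:111442469-111455018, plus strand), a gene induced by TNF and NF-kB whose product takes part in forming membrane protrusions, went opposite ways under the diets. It had 313.9 and 290.6 in TAC SFA-EAA and 210.7 and 226.2 in sham SFA-EAA, so both TAC libraries were higher. Under SFA it had 235.2 and 232 in TAC hearts and 383.4 and 342.2 in sham hearts, so both TAC libraries were lower. The TAC level was 1.38-fold that of sham under SFA-EAA (log2 difference 0.47 ± 0.126 SE, adjusted p = 0.39) and 0.646-fold under SFA (log2 difference -0.63 ± 0.126 SE, adjusted p = 0.0541). The difference between these log2 differences was 1.10 (interval 0.69 to 1.5), with an unadjusted p of 0.000167 and an adjusted p of 0.698 over the 16432 genes. Under SFA the adjusted p was below 0.05 in 7 of the 18 other settings, GC correction (0.0276) among them, and was not below it in 11. The lowest was 0.0144, with library weights. With GC correction the level after TAC was also higher in SFA-EAA than in SFA (log2 difference 0.77, adjusted p = 0.0306), against 0.37 and 0.233 as deposited. Sham hearts on SFA-EAA stood at 0.604 of those on SFA (log2 difference -0.73, adjusted p = 0.267), and at a log2 difference of -0.26 with GC correction.

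**Figure D3:**
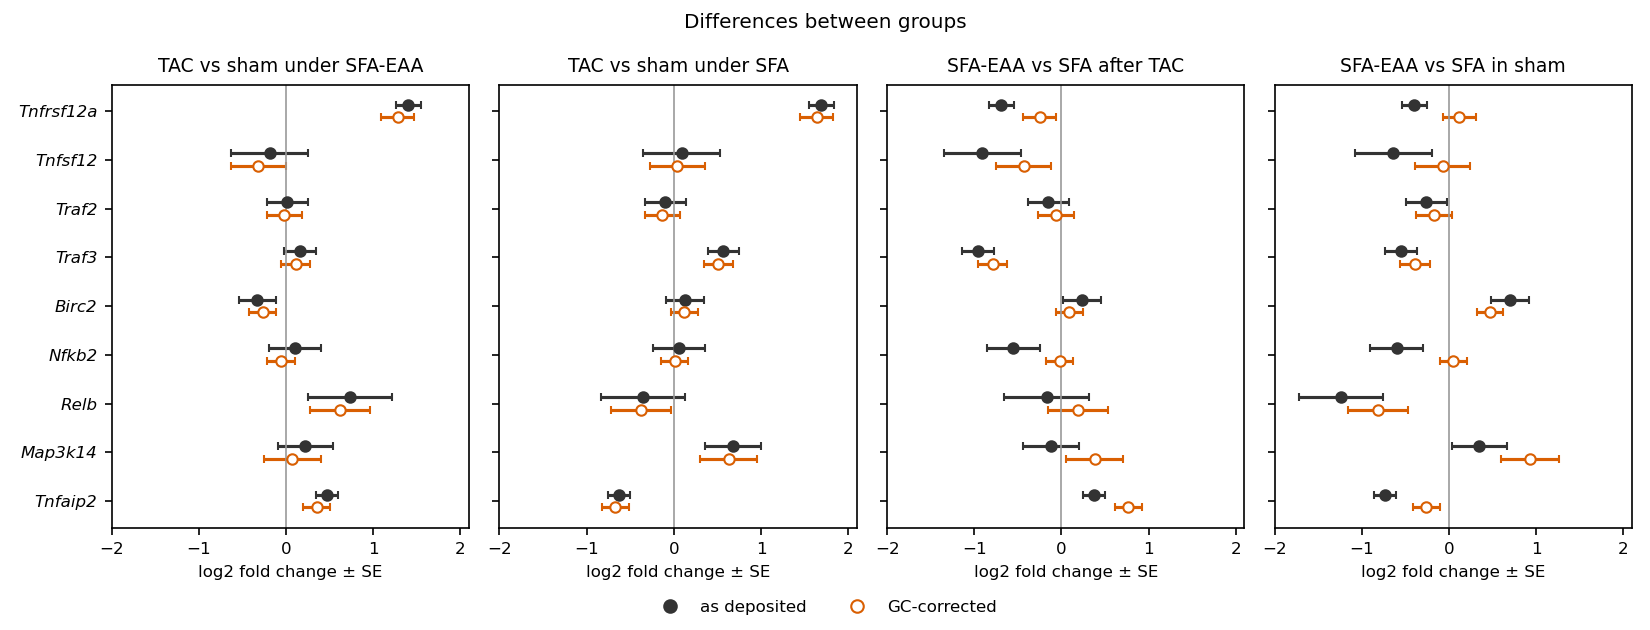
Log2 difference of each of the 9 genes (rows) in the 4 comparisons between groups, with standard errors from the limma fit as bars, filled as deposited and open with GC correction. Tnfrsf12a stands at 1.40 under SFA-EAA and 1.69 under SFA for TAC over sham, and Tnfaip2 lies on opposite sides of 0 in those comparisons (0.47 and -0.63).

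Over all 9 genes, none of those tested passed the adjusted threshold in any comparison with the values as deposited. Among all 16432 genes, TAC against sham called 0.0122% under SFA-EAA and 1.25% under SFA (137 genes or 0.834% higher and 68 or 0.414% lower, or 391 higher and 442 lower with GC correction). Leaving out a library changed the 205 calls under SFA to 39 (TAC SFA replicate 1), 2 (TAC SFA replicate 2), 54 (sham SFA-EAA replicate 1), 55 (sham SFA-EAA replicate 2), 12 (sham SFA replicate 1) or 0 (sham SFA replicate 2), and to 385 (TAC SFA-EAA replicate 1) or 383 (TAC SFA-EAA replicate 2). The diet comparison called 0.0487% after TAC (0.0122% higher and 0.0365% lower) and 0% in sham hearts, where 2437 genes had an unadjusted p below 0.05, and the test of unequal TAC differences called 0%, with 902 genes (5.49%) below 0.05. Unadjusted p-values below 0.05 were found for 1 of the 8 genes tested in TAC against sham under SFA-EAA and 2 of 8 under SFA, against 8.57% and 13.4% of all genes. They were found for 3 of 9 in the diet comparison after TAC and 5 of 9 in sham hearts, against 15.1% and 14.8% of all genes. These are counts of correlated genes in the same libraries and were not tested.

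Counting genes whose libraries do not overlap, Tnfrsf12a included, 3 of 9 were apart between TAC and sham under SFA-EAA and 4 of 9 under SFA, against 36.6% and 47.4% of all genes. That count includes the gene chosen for this pattern, and nothing is read from it. For diet, 4 of 9 were apart after TAC, against 42.8% of all genes, and all 9 were apart in sham hearts, 7 of them lower in SFA-EAA, against 55.2% of all genes in either direction and 27.6% lower. With GC correction 6 of 9 were apart in sham hearts, against 46.5% of all genes. The median log2 difference of the 9 genes in sham hearts was -0.55 for SFA-EAA over SFA, against -0.01 for all genes, and -0.07 with GC correction.

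Of 27 other TNF receptor family genes, 23 were tested, and 0 passed the adjusted threshold in any comparison. Their median log2 difference between TAC and sham was 0.28 under SFA-EAA and 0.54 under SFA, against 0 and 0.01 for all genes. An unadjusted limma p below 0.05 was found for 5 under SFA-EAA and 6 under SFA, against 8.57% and 13.4% of all genes. Apart from Tnfrsf1b, those 6 had low means, 0.788 to 2.32 per kb. Under SFA the smallest p was that of Tnfrsf19, which fell (log2 difference -1.77, adjusted p = 0.169). The more abundant Tnfrsf1a, Ltbr and Fas differed by 0.25, 0.12 and -0.26 under SFA. Tnfrsf1b, the TNF receptor of leukocytes and endothelium, had 68.7 and 76.4 in TAC SFA-EAA and 24.9 and 37.7 in sham SFA-EAA (2.32-fold, adjusted p = 0.299), and 69.2 and 85.8 in TAC SFA and 53.3 and 47.6 in sham SFA (adjusted p = 0.338). Of 17 other TNF ligand genes 9 were tested, and 0 passed the threshold in any comparison. An unadjusted limma p below 0.05 was found for 1 gene between TAC and sham under SFA-EAA and for 1 between diets after TAC. The other 3 comparisons had 0, and the share of all genes was 5.49% to 15.1% across the comparisons. The median log2 difference of the 9 ligand genes between TAC and sham was 0.24 under SFA-EAA and 0.46 under SFA.

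All 33 other NF-kB signalling genes were tested, and 0 passed the threshold in any comparison. Their median log2 difference between TAC and sham was 0.04 under SFA-EAA and 0.08 under SFA. An unadjusted limma p below 0.05 was found for 2 under SFA-EAA and 4 under SFA, against 8.57% and 13.4% of all genes. The subunit gene Rela had 162 and 96.8 in TAC SFA-EAA, 158.4 and 186.5 in TAC SFA, 122.8 and 120.9 in sham SFA-EAA, and 172.9 and 156.7 in sham SFA, and TAC and sham overlapped under both diets. Nfkbie, which encodes an inhibitor of NF-kB, was higher in both TAC libraries under each diet by a log2 difference of 1.15, with adjusted p-values of 0.527 under SFA-EAA and 0.306 under SFA. Other genes of its family differed in direction under SFA. Nfkbid (-1.48, adjusted p = 0.266) and Nfkbib (-0.42, adjusted p = 0.703) were lower in both TAC libraries. Nfkbia (-0.18), Nfkbiz (0.42) and Bcl3 (0.50) overlapped between TAC and sham.

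Of 24 genes reported to respond to TWEAK or to the non-canonical pathway, 20 were tested. In TAC against sham under SFA 2 were called higher, Timp1 among them, against 0.834% of all genes. Timp1, an inhibitor of matrix metalloproteinases, had 36 and 36.6 in TAC SFA-EAA, 90.1 and 137 in TAC SFA, 12.1 and 9.61 in sham SFA-EAA, and 27.3 and 11.8 in sham SFA. All TAC libraries were above all sham libraries, by 5.9-fold under SFA (adjusted p = 0.0209) and by a log2 difference of 1.66 under SFA-EAA (adjusted p = 0.323). The call was lost when TAC SFA replicate 2 or either sham SFA library was left out, with adjusted p-values of 0.0623 to 0.314. It was also lost without TAC SFA replicate 1 or either sham SFA-EAA library (0.0728 to 0.0885). No filter (adjusted p = 0.0802) and a fit to only the 4 libraries compared (adjusted p = 0.171) also lost the Timp1 call. The median log2 difference of the 20 genes was 0.13 under SFA and -0.01 under SFA-EAA, close to that of all genes. No gene of the list passed the threshold in the other 4 comparisons.

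Markers of other cell types were read beside the receptor gene. The summed fibroblast markers lay between 9111 and 10830 in TAC SFA-EAA, 14030 and 22930 in TAC SFA, 10160 and 10470 in sham SFA-EAA, and 12110 and 13510 in sham SFA. Under SFA, 3 of the 10 passed the test as higher after TAC, against 0.834% of all genes. They were Col1a2 (2.98-fold, adjusted p = 0.0168), Col3a1 (2.73-fold, adjusted p = 0.0194) and Pcolce (1.97-fold, adjusted p = 0.0489), all genes of collagen or its processing. The median log2 difference of the 10 fibroblast markers between TAC and sham was 0.03 under SFA-EAA and 0.83 under SFA. Under SFA-EAA 0 passed and 2 had an unadjusted limma p below 0.05, against 8.57% of all genes. Col1a2 was also lower in SFA-EAA than in SFA after TAC (log2 difference -1.97, adjusted p = 0.0408), a call lost when any library but TAC SFA replicate 1 or TAC SFA-EAA replicate 1 was left out (adjusted p from 0.155 to 0.546). The 3 calls under SFA were likewise lost without TAC SFA replicate 2 or any 1 of the 4 sham libraries (adjusted p from 0.0659 to 0.394), and those on Col3a1 and Pcolce also without TAC SFA replicate 1 (0.0893 and 0.103). Of the 10 smooth muscle and pericyte markers, the channel subunit gene Abcc9 alone passed, and it fell in TAC hearts on SFA (log2 difference -0.64, adjusted p = 0.0307), a call lost without any 1 of the SFA or sham libraries (adjusted p from 0.0891 to 0.362). The list as a whole had 6 of 10 positive log2 differences there, with a median of 0.38, against a median of -0.37 under SFA-EAA. For diet after TAC its median was -0.87, with 7 of the 10 lower in both SFA-EAA libraries, against 21.1% of all genes, and 0 passed. The summed macrophage markers lay between 1837 and 2312 in TAC SFA-EAA and 1256 and 1359 in sham SFA-EAA, and between 2020 and 2332 in TAC SFA and 1345 and 1803 in sham SFA. Under each diet 9 of the 10 macrophage markers were higher in both TAC libraries. The shares of all genes were 18.5% under SFA-EAA and 24.3% under SFA. Of the 10, 0 passed the adjusted threshold. An unadjusted limma p below 0.05 was found for 8 under SFA-EAA and 5 under SFA, against 8.57% and 13.4% of all genes. Endothelial markers had median log2 differences of 0.06 under SFA-EAA and -0.02 under SFA, and their sums were 4338 to 4952 in TAC SFA-EAA, 4627 to 5071 in TAC SFA, 4279 to 4690 in sham SFA-EAA and 4878 to 5032 in sham SFA. Lymphocyte marker sums were at most 21.44, and the neutrophil genes Ly6g and Mpo were at 0 in all 8 libraries. The part of fibroblasts and macrophages in the values of Tnfrsf12a and Timp1 was not tested. Without the 2 libraries with high atrial markers, the log2 difference of Tnfrsf12a under SFA was 1.63.

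The 8 genes whose log2 values followed Tnfrsf12a most closely over the 8 libraries, among 9945 genes with a mean of at least 20, were Ankrd1, Ifitm3, Klhl34, Il18bp, Myh7, Acta1, Nrap and Col8a1, with Pearson r from 0.974 to 0.985 and Spearman rho from 0.881 to 1. The libraries share the operation, the diet and the GC trend, so these are descriptions over 8 points in 4 clusters, and no p is given. Ankrd1, which encodes a stretch-responsive protein of the sarcomere and nucleus, had 14949.9 and 15169.2 in TAC SFA-EAA, 25397 and 33082.2 in TAC SFA, 6419.7 and 3567.9 in sham SFA-EAA, and 4775.7 and 6539.9 in sham SFA. Its TAC libraries were all above its sham libraries, and TAC SFA was above TAC SFA-EAA, the same order of operated groups as for the receptor gene. Myh7, the slow myosin heavy chain that returns in overloaded mouse ventricle, averaged 4709 in TAC SFA-EAA and 15510 in TAC SFA, against 573.8 in sham SFA-EAA and 856.5 in sham SFA. Acta1, skeletal muscle actin, averaged 4979 in TAC SFA-EAA and 17710 in TAC SFA, against 1123 in sham SFA-EAA and 1663 in sham SFA. Nrap, a protein of myofibril assembly, averaged 4537 in TAC SFA-EAA and 6241 in TAC SFA, against 2677 in sham SFA-EAA and 3278 in sham SFA. Col8a1, a collagen chain, averaged 244.8 in TAC SFA-EAA and 570.8 in TAC SFA, against 73.99 in sham SFA-EAA and 73.23 in sham SFA. The list depended on the libraries: 1 of these 8 genes remained among the closest 8 with GC correction, and 2 to 7 remained when a library was left out, with 2 for either TAC SFA-EAA library, 3 for sham SFA-EAA replicate 2, 4 for TAC SFA replicate 2 or sham SFA-EAA replicate 1, and 5 for sham SFA replicate 1.

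**Figure D4:**
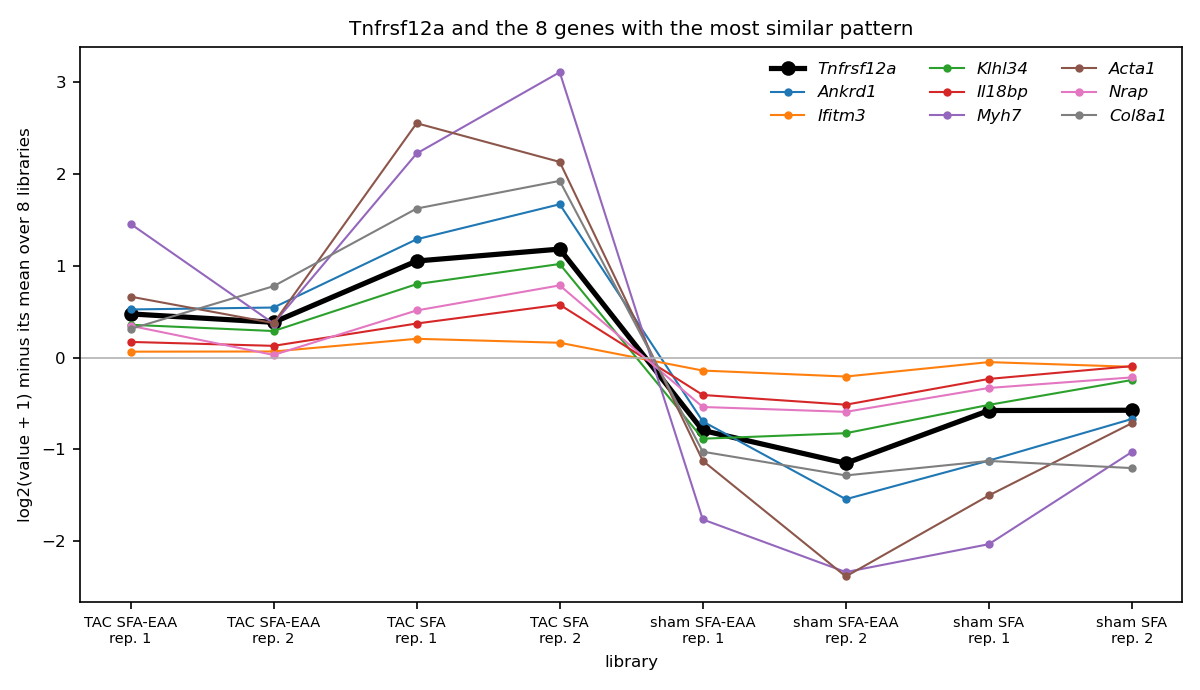
Log2 of normalized value + 1, centred on each gene's mean over the 8 libraries (y axis), for Tnfrsf12a and the 8 genes most correlated with it, by library (x axis, grouped as TAC SFA-EAA, TAC SFA, sham SFA-EAA and sham SFA). Tnfrsf12a and the 8 genes, with Pearson r of 0.974 to 0.985 to it, are high in TAC SFA and low in both sham groups.

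Within the pathway itself, Tnfrsf12a had its highest Pearson r with Traf3 and Map3k14, 0.70 and 0.63 over the 8 libraries, and had an r of 0.18 with its ligand gene. Spearman rho was 0.74 for Traf3 and 0.55 for Map3k14, against 0.48 for Relb and 0.45 for Nfkb2. The libraries share operation, diet and GC trend, and Tnfrsf12a was chosen by its TAC difference, so these values are descriptions only. Among pathway genes other than the receptor, the mean level per kb over the 8 libraries was 56 for Tnfaip2, 32.6 for Birc2, 28.7 for Nfkb2, 21 for Tnfsf12, 17.5 for Traf3, 15.2 for Traf2, 10.7 for Relb and 4.15 for Map3k14. Tnfaip2 was above 81.4% of the genes tested, Relb near the middle (49.4%) and Map3k14 above 34.1%.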

How the data were processed

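PolyA RNA of 8 left ventricle libraries was measured, and groups and replicate numbers were taken from the sample titles. Reads were aligned with STAR 2.5 to GRCm38 and normalized with edgeR, per the submitters' processing notes, while the counter, the annotation, any filtering and whether strand was used are details not given in the sources used here. The deposited signal per gene is a normalized value that is not whole, so no test for counts was run: the best step per library left 51.2% to 99.5% of values within 0.1 of a whole multiple. Coordinates and exonic lengths are those of the deposited table. Depth limits the precision of low genes, since values near 1 rest on about 1 read.

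Genes that reached a value of 1 in 2 or more libraries were tested with limma 3.58.1 (R 4.3.3) on log2(value + 1), with 1 mean per group, a trend in the shared spread and 4 residual degrees of freedom. Adjusted p-values are two-sided limma p-values with Benjamini-Hochberg adjustment over all genes tested, with a threshold of 0.05. GC correction subtracts from each library a loess curve of its deviations on GC content. Alternatives were a pseudocount of 0.25, other filters, 2 scalings, GC correction, a replicate block, library weights, separate fits and leaving out each library, and, chosen after seeing the data, leaving out the 2 libraries with high atrial markers.

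The members, lists and tests were chosen with earlier results of these data known. The genes named are the 9 members, the genes of each list that were called or had the 3 smallest p-values between TAC and sham, and the 8 genes most correlated with Tnfrsf12a, and not each of these is given. A further called gene of a list is not reported here. Rela, Tnfrsf1a, Ltbr, Fas, Birc3, Cd163, Myl7 and the genes of the marker lists named for their level were added to these after their values were seen. Scripts were tested on simulated data. Tables and figures used Python 3.11.15.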

Additional observations from a re-analysis of the deposited data

Results flagged for a closer look

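Tnfaip2 was flagged because the TAC libraries lay on opposite sides of the sham libraries under the 2 diets. Under SFA-EAA it had 313.9 and 290.6 in TAC and 210.7 and 226.2 in sham hearts, and under SFA 235.2 and 232 in TAC and 383.4 and 342.2 in sham hearts. The TAC difference under SFA-EAA exceeded that under SFA by 1.10 on the log2 scale, and limma's test of that difference did not pass the threshold (adjusted p = 0.698). The value was 1.01 to 1.18 over the 17 other settings, with adjusted p-values from 0.114 to 1. Of all 16432 genes tested, 711 (4.33%) had libraries that did not overlap in opposite directions under the 2 diets.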

How the results depend on the processing

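Whether the replicate numbers pair libraries across groups is not stated. The deviations of libraries with the same number correlated at -0.10 to 0.01 between groups. With 2 libraries per group these deviations also hold each library's GC trend, so they cannot decide it. With the number as a block, TAC against sham called 96 genes under SFA and 0 under SFA-EAA, the diet comparison called 0 genes after TAC, and no member was called. Tnfrsf12a stood higher in TAC than in sham hearts under every setting listed here. Its log2 difference was 1.63 without the 2 libraries with high atrial markers (1.69 as reported under SFA), 1.63 to 1.76 with each library left out under SFA, and 1.22 to 1.58 under SFA-EAA.

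Calls depended on the settings. Of all genes, 13011 were tested with a minimum value of 5, 20568 with no filter and 16432 in every other setting. Between TAC and sham under SFA, quantile scaling called 122 genes higher and 63 lower, and median-of-ratios scaling 134 higher and 79 lower. Under SFA, TAC against sham called 322 genes with a minimum value of 5, 833 with GC correction, 728 with library weights, 0 in a fit to the 4 libraries compared, 0 without the libraries with high atrial markers, and 0 to 385 with each library left out (205 as reported). The member Tnfaip2 was then called, 1 of 8 tested, with a minimum of 5, quantile or median-of-ratios scaling, GC correction or weights, and 0 to 1 members with each library left out. Under SFA-EAA, 5 genes were called with a minimum of 5 and 35 with GC correction, and 0 with a pseudocount of 0.25, no filter, quantile scaling, weights, the 4 libraries alone, without the atrial pair or with each library left out (2 as reported). For diet after TAC, 81 genes were called with a minimum of 5, 15 with median-of-ratios scaling, 318 with GC correction, and 0 with a pseudocount of 0.25, no filter, weights, the 4 libraries alone or without the atrial pair, and 0 to 1395 with each library left out (8 as reported), with 2 members called with GC correction and 0 to 3 with each library left out. For diet in sham, 5 genes were called with GC correction, 591 with weights and 0 to 466 with each library left out (0 as reported). The members Birc2 and Tnfaip2 were called, 2 of 9, with weights, and 0 to 2 with each library left out, the 2 when either TAC SFA-EAA library was left out (adjusted p = 0.0303 to 0.0436). Where leaving out a library left 1 in a group, that library was assumed to vary like the other groups. The cause was not tested.

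Some differences changed sign. With GC correction these were, as log2 differences, Traf2 -0.02 and Nfkb2 -0.06 for TAC under SFA-EAA, Relb 0.19 and Map3k14 0.38 for diet after TAC, Tnfrsf12a 0.12 and Nfkb2 0.05 for diet in sham, and Nfkb2 -0.07 for the change of the TAC difference. Under quantile scaling they were Traf2 -0.01 (also with median-of-ratios scaling) for TAC under SFA-EAA and Map3k14 0.01 for diet after TAC. Without the atrial pair they were Tnfsf12 -0.07 for TAC under SFA and Traf2 0.07, Relb 0.08 and Map3k14 0.27 for diet after TAC. With each library left out, TAC against sham under SFA ranged over -0.19 to 0.37 for Tnfsf12, -0.32 to 0.11 for Traf2 and -0.05 to 0.17 for Nfkb2. Under SFA-EAA it ranged over -0.76 to 0.39 for Tnfsf12, -0.25 to 0.27 for Traf2, -0.01 to 0.32 for Traf3, -0.67 to 0.01 for Birc2, -0.41 to 0.62 for Nfkb2, -0.07 to 1.52 for Relb and -0.04 to 2.08 for Tnfsf13. Diet after TAC ranged over -0.41 to 0.12 for Traf2, -0.10 to 0.58 for Birc2, -0.50 to 0.27 for Map3k14 and -0.96 to 0.63 for Relb, and the change of the TAC difference over -0.85 to 0.30 for Tnfsf12, -0.15 to 0.37 for Traf2 and -0.47 to 0.56 for Nfkb2.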

Other observations

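Cd163, which encodes a macrophage receptor that binds TWEAK, had 51.5 and 172.8 in TAC SFA-EAA, 107.5 and 56.4 in TAC SFA, 82.1 and 90.3 in sham SFA-EAA, and 94.9 and 48.2 in sham SFA. Its TAC and sham libraries overlapped under both diets, with a log2 difference of 0.13 under SFA-EAA (limma adjusted p = 0.982) and 0.20 under SFA (adjusted p = 0.929).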
